A study of Mus musculus with 4 samples.

Results

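Choroid plexus spots are here the positions of a spatial transcriptomics array that held transcripts of the secretory epithelium of the brain ventricles. No image was used to place them. They were chosen by 3 epithelial genes: a spot was taken when it held at least 500 UMIs (unique molecular identifiers, 1 for each captured RNA molecule) and at least 10 UMIs of Folr1, Clic6 and Kcne2 together, here called rule UMIs. The rule found 77 of the 10942 spots that passed the 500 UMI minimum, or 0.704%. A further 122 of the 11064 spots were under the minimum, and none of them had 10 rule UMIs. Because the spots were chosen by measured values, every comparison between choroid plexus spots and the other spots is a description with no test.

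The study measured gene expression on Visium slides in coronal 10 µm sections of the left hemisphere of female C57BL/6 wild-type mice, with 1 library in each of 4 groups. Aged ethanol mice were 18 to 20 months old and were given ethanol at 3 g/kg by gavage, and aged vehicle mice of the same age were given water. Young ethanol mice were 3 to 4 months old and were given the same ethanol dose, and young vehicle mice of that age were given water. All 4 groups had 10 gavages over 18 days, their brains were taken 18 hours after the last one, and the meninges were removed before freezing. The labels do not say how many animals a library holds. A Visium spot covers several cells of mixed types, so fewer cells of a type and less RNA per cell cannot be told apart in any value given here. With 1 library per group, differences between libraries have no replicate and no p-value, and the 95% intervals given with them cover counting error only.

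The choroid plexus is a folded epithelium that hangs into the ventricles over a core of leaky capillaries and stroma. Its cells secrete cerebrospinal fluid by moving sodium, chloride, bicarbonate and water from blood to ventricle, and their tight junctions form the barrier between blood and that fluid. They export carrier proteins such as transthyretin, which binds thyroxine and the retinol-binding protein, and they take up folate through the folate receptor encoded by Folr1. Clic6 encodes a member of the chloride intracellular channel family, and Kcne2 encodes a regulatory subunit of potassium channels. The epithelium is continuous with the ciliated ependymal cells that line the ventricle wall.

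The 77 spots were spread unevenly over the libraries. There were 10 in aged ethanol (0.379% of 2642 kept spots, exact Clopper-Pearson 95% interval 0.182% to 0.695%) and 29 in aged vehicle (1.07% of 2703, 0.720% to 1.54%). Young ethanol had 12 (0.417% of 2881, 0.215% to 0.726%) and young vehicle had 26 (0.957% of 2716, 0.626% to 1.40%). The intervals of the ethanol libraries lay below the point values of the vehicle libraries, and the number of spots also depends on where the section cut the ventricle. The sections differed in level along the brain by gavage label: the summed level of 7 habenula and thalamus markers in all other spots was 497 CPM (UMIs of a gene scaled to a common total) in aged ethanol, against 267 CPM in aged vehicle, and 520 CPM in young ethanol, against 212 CPM in young vehicle. Gavage and level of section therefore cannot be told apart in any comparison of ethanol with vehicle. No member barcode of 1 library was a member in another (0 shared), although 3408 of the 4159 array positions in use were kept in more than 1 library.

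Each library held between 46005089 and 58307916 UMIs. Choroid plexus spots held more UMIs than the rest of their sections, which a rule set in UMIs itself favours. Their median was 39325 UMIs per spot in aged ethanol, 31290 in aged vehicle, 31888.5 in young ethanol and 33240.5 in young vehicle, and the medians of other spots lay between 15457.5 and 19031. Summed over the choroid plexus spots, the libraries held 368632, 881827, 390241 and 943318 UMIs in the order aged ethanol, aged vehicle, young ethanol and young vehicle, so that 3 UMIs stood for 8.14, 3.40, 7.69 and 3.18 CPM. Mitochondrially encoded RNA made up 9.17% of UMIs in choroid plexus spots of aged ethanol, 7.28% in aged vehicle, 9.17% in young ethanol and 7.34% in young vehicle, against 13.7% to 16.6% in other spots.

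As sums over each library, the spots carried the markers of choroid plexus, and the aged vehicle spots nearest the minimum held fewer UMIs of them. Ttr, which encodes transthyretin, alone gave 18.8% of all UMIs in the choroid plexus spots of aged ethanol, 22.1% in aged vehicle, 15.3% in young ethanol and 20.8% in young vehicle. In the other spots of the same sections it gave 0.0252%, 0.141%, 0.0205% and 0.0943% in that order. Per spot, Ttr ran from 1275 over a median of 6627.5 to 13648 UMIs in aged ethanol, from 437 over 7148 to 14119 in aged vehicle, from 1007 over 3294 to 10980 in young ethanol, and from 1081 over 6544 to 17994 in young vehicle. No choroid plexus spot had fewer than 437 Ttr UMIs, and Ttr took no part in the rule. Enpp2, which encodes autotaxin, the secreted enzyme that makes lysophosphatidic acid, had 12451 CPM in aged ethanol, 13168 in aged vehicle, 8741 in young ethanol and 13022 in young vehicle, against 174 to 226 CPM in other spots. The plot of Ttr against rule UMIs shows the spots of all libraries on 1 band.

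**Figure D1:**
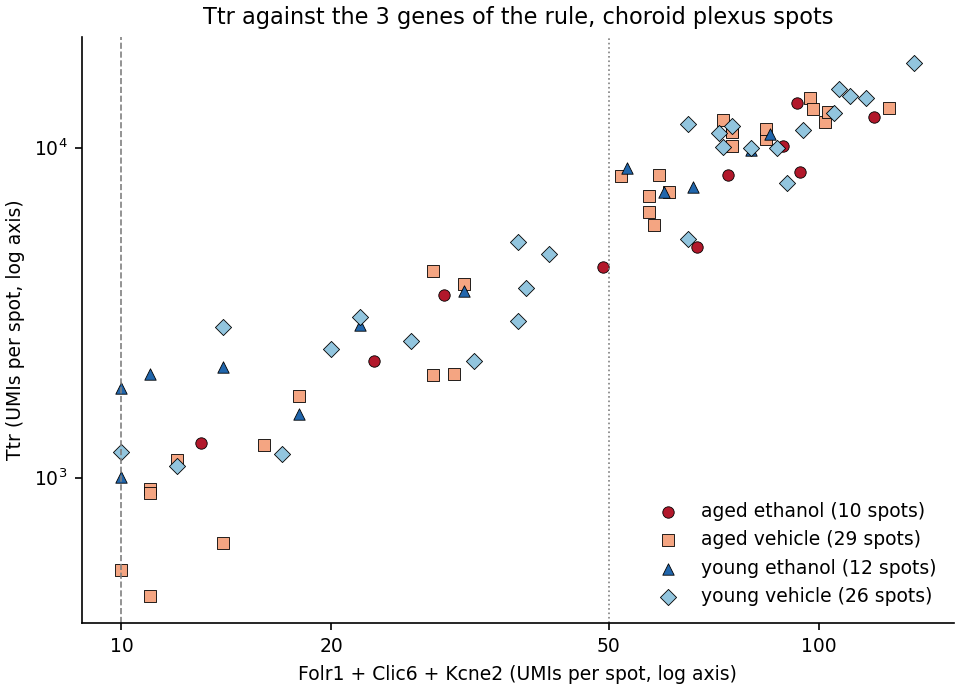
Ttr UMIs per spot (vertical, log axis) against the summed UMIs of Folr1, Clic6 and Kcne2 (horizontal, log axis) for the 77 choroid plexus spots, 1 point per spot, by library; the dashed line marks the minimum of 10 rule UMIs and the dotted line 50. Ttr climbs with the rule genes in all 4 libraries, up to 17994 UMIs in the spot with 137 rule UMIs.

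The rule genes spanned a wide range from spot to spot. Rule UMIs had a lowest, median and highest value of 13, 70.5 and 120 in aged ethanol, 10, 57 and 126 in aged vehicle, 10, 26.5 and 85 in young ethanol, and 10, 65 and 137 in young vehicle. Spots with at least 50 rule UMIs, here called core spots, numbered 6 in aged ethanol, 17 in aged vehicle, 5 in young ethanol and 14 in young vehicle, 42 in all. The other 35, with 10 to 49 rule UMIs, are called edge spots and numbered 4, 12, 7 and 12 in the same order. Young ethanol was thus the library with the largest share of edge spots.

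The minimum of 10 cut through a gradient, and most spots just outside it lay in the vehicle libraries. Just inside it, at 10 to 12 rule UMIs, lay 0 spots of aged ethanol, 5 of aged vehicle, 3 of young ethanol and 2 of young vehicle. Just outside, at 7 to 9, lay 1, 12, 0 and 5. A minimum of 5 rule UMIs gave 12 spots in aged ethanol, 64 in aged vehicle, 18 in young ethanol and 39 in young vehicle. In aged vehicle, Ttr had a median of 895 UMIs just inside and 646 just outside, and the ranges overlapped (437 to 1129 and 349 to 1301). In young vehicle, the 2 spots just inside had 1081 and 1193 Ttr UMIs, and the 5 outside had 349 to 814. In young ethanol, the 3 spots just inside had 1007 to 2060 Ttr UMIs. The 5 aged vehicle spots just inside were rich in Folr1, with 33 Folr1, 18 Clic6 and 4 Kcne2 UMIs in sum, whereas over all choroid plexus spots of that library there were 0.584 Folr1 UMIs per Clic6 UMI (0.559 in aged ethanol, 0.565 in young ethanol and 0.488 in young vehicle). Spots with more Folr1 than Clic6 numbered 0 in aged ethanol, 6 in aged vehicle, 1 in young ethanol and 0 in young vehicle.

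Those 5 aged vehicle spots held Ttr but few UMIs of Otx2, Aqp1 and Foxj1, and they held RNA of neurons. They had 0 to 1 UMIs of the epithelial factor Otx2, 0 to 2 of Aqp1, the water channel of the apical membrane, and 0 to 1 of Foxj1, a factor of ciliated cells. Snap25, a synaptic protein, had 19 to 89 UMIs in them, and Penk, the opioid precursor proenkephalin, 9 to 102. Together they held 276 of the 302 Penk UMIs (91.4%) and 217 of the Snap25 UMIs (78.1%) of all 29 aged vehicle spots, but 1.76% of the Cox8b and 3.70% of the A2m UMIs. In the 3 young ethanol spots at 10 to 12 rule UMIs Snap25 had 0 to 4 UMIs and Penk 0 to 1, and in the 2 young vehicle spots Snap25 had 0 and 8 and Penk 0 and 7. Enpp2 was present in the 5 aged vehicle spots, at 26 to 62 UMIs. The 3 young ethanol spots were also low in Otx2 (1 to 2 UMIs) and Aqp1 (0 to 2), but had 4 to 7 of Foxj1. Otx2, Aqp1 and Foxj1 were chosen after their values were seen, and they do not settle the label of the 5 spots. Counts of genes called against aged vehicle that rest on these 5 spots are given below with and without spots under 20 rule UMIs.

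Promoters of genes that carry the results are printed here so that their letters can be read beside the expression values: Kcne2, a gene of the rule; Aqp1 and Otx2, a water channel and a homeobox factor of the epithelium that took no part in the rule; and Cox8b, the gene that the comparison of ethanol with vehicle turns on. Each window runs 5′ to 3′ from 250 bases before to 50 bases after an annotated gene start, from RefSeq on the GRCm38.p6 build. The windows are chr16:92292139-92292438 (plus strand) for Kcne2, chr6:55336049-55336348 (plus) for Aqp1, chr14:48667459-48667758 (minus) for Otx2 and chr7:140900397-140900696 (minus) for Cox8b. Where the table lists several windows for a gene (2 for Kcne2 and 4 for Otx2), the one with the most matches is shown. Capitals mark GTTGCC or its reverse complement GGCAAC, the short core that factors of the RFX family recognise. The letters of TAATCC (reverse complement GGATTA), the core that OTX factors recognise, were searched on both strands as well. A match of the RFX core cannot overlap a match of the OTX core.
Kcne2: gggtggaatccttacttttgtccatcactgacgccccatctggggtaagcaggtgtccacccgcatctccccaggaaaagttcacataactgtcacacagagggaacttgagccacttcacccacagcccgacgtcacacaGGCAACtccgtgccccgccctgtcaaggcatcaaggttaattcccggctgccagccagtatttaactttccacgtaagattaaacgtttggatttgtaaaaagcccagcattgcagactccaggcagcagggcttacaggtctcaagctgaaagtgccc
Aqp1: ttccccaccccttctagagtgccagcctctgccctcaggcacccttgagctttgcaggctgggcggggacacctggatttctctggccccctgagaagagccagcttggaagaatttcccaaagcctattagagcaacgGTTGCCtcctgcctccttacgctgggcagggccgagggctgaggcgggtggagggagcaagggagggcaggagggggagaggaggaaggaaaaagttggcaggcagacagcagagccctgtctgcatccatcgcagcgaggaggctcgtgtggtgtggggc
Otx2: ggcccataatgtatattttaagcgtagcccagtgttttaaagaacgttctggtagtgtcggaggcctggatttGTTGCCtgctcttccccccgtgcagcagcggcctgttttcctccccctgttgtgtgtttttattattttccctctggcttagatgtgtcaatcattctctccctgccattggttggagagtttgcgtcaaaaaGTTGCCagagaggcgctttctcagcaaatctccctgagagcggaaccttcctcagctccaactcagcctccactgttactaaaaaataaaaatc
Cox8b: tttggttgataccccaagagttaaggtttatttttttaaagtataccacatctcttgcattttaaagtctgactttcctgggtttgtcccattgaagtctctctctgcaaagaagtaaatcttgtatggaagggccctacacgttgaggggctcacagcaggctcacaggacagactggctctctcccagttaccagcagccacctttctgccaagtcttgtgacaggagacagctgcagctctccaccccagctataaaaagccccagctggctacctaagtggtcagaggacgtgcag
No window of Folr1, Clic6, Ttr, Enpp2 or A2m was listed.

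In these windows GTTGCC or GGCAAC occurred 1 time for Kcne2, 1 time for Aqp1, 2 times for Otx2 and 0 times for Cox8b, and TAATCC or GGATTA occurred in none of them. Over all 32851 windows of the table, 12.5% held the first motif and 7.06% the second. Among genes measured in these spots that had a window, the shares were 15.2% and 6.92% of 11622. Among the 105 genes with a window that were at least 16-fold higher in choroid plexus spots of each library, 26 (24.8%) held GTTGCC and 14 (13.3%) held TAATCC. These are matches of letters in a window and say nothing of binding.

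Counts were summed over the choroid plexus spots and over all other kept spots of their library, and the CPM of the first sum was divided by that of the second. A gene was called when this ratio was 2-fold or more in the same direction in all 4 libraries and both sums together held 20 UMIs or more in every one. Of 15053 genes tested, 1195 were higher (7.94%) and 1677 were lower (11.1%). The median log2 ratio of all genes was -0.08. By the median of ratios, the centre of the ratios lay below 0 in CPM, at -0.12 in aged ethanol, -0.30 in aged vehicle, -0.12 in young ethanol and -0.23 in young vehicle. The 134 genes at least 16-fold higher in each library (0.89%) are called choroid plexus genes here. All counts of this comparison describe how the spots were chosen and carry no test.

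Genes ranked by their least different library were led by products of the epithelium. The top of the list held F5, which encodes coagulation factor V, with 205 to 295 CPM in choroid plexus spots of the 4 libraries, against 0.461 to 1.24 CPM in other spots. Cldn2, which encodes the claudin that forms cation and water pores in leaky tight junctions, had 110 to 219 CPM, against 0.311 to 1.26. Ecrg4, the precursor of the secreted peptide augurin, had 1033 to 1704 CPM, against 3.64 to 11.5. Their log2 ratios were 7.21 or more in every library, and the ranges of choroid plexus and other spots did not overlap. Among the genes outside the rule, Ttr ranked behind Cldn2 and Calml4 ahead of Ecrg4. Frmpd1os, Tmem72, Slc16a8, Prr32, Aqp1, Wdr86, Wfdc2, Kcnj13 and Slc4a5 followed, with a median log2 ratio of 7.66 to 8.39. Rule genes had medians of 7.20 (Folr1), 6.87 (Clic6) and 8.73 (Kcne2), Ttr of 8.66 and Enpp2 of 5.90. In the other spots, Folr1 was at 8.45 CPM in aged vehicle and 5.50 in young vehicle but 1.53 in aged ethanol and 1.29 in young ethanol, the same order as the number of spots just outside the minimum.

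The genes furthest down were those of neurons. The 10 lowest by the library closest to 0 were Slc17a6, Stx1a, Lamp5, Kcnj9, Adcy1, Gpr22, Nrgn, Lmo1, Calb2 and Hapln4, at median log2 ratios of -4.26 to -3.62. Nrgn, which encodes the postsynaptic calmodulin-binding protein neurogranin, had 35.3 CPM in choroid plexus spots of aged ethanol, 154 in aged vehicle, 113 in young ethanol and 135 in young vehicle, against 1600 to 2072 CPM in other spots. All 8 neuron markers were lower (median -3.74), as were all 5 tested of 7 habenula and thalamus markers (-2.56) and 4 of 7 markers of hippocampal neurons (-2.86). The habenular markers Gpr151 and Pou4f1 had 0 UMIs in choroid plexus spots of every library. They had too few UMIs to be tested, so these zeros are not read as a lower level.

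In these lists, counts of called members can be read against the 7.94% of all genes that were higher and the 11.1% that were lower. Of 19 genes tested that move ions and water, 11 were higher and none lower (median 2.57). Aqp1, the water channel of the apical membrane, had 111 CPM in aged ethanol, 175 in aged vehicle, 133 in young ethanol and 169 in young vehicle, against 0.380 to 1.40 CPM in other spots. Slc4a5, a sodium bicarbonate cotransporter, had 164 to 279 CPM, against 0.242 to 1.64, and Kcnj13, an inward rectifier potassium channel, had 231 to 372, against 0.397 to 2.33. Slc12a2, the sodium, potassium and chloride cotransporter NKCC1, was higher by less, at 284 to 338 CPM against 50.1 to 56.3. The carbonic anhydrase genes Car12, Car14 and Car2, the anion exchanger Slc4a2, Slc12a4, the sodium pump regulator Fxyd1 and the calcium channel Trpv4 made up the rest of the 11. Beta subunits of the sodium pump did not meet the call: the median log2 ratio was -0.72 for Atp1b1, -0.79 for Atp1b2 and 1.16 for Atp1b3.

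Of 16 genes on the list of secreted and carrier proteins, 13 were higher and none lower (median 4.21). Calml4 and Spint2 are on this list but do not strictly meet its label. Klotho (Kl), an anti-ageing membrane and circulating protein, had 985 CPM in aged ethanol, 979 in aged vehicle, 661 in young ethanol and 951 in young vehicle, against 5.25 to 10.4 in other spots. Igf2, a growth factor of stroma and epithelium, had 500 to 833 CPM, against 19.8 to 38.5, and its binding protein Igfbp2 had 907 to 1353, against 30.4 to 50.3. Sostdc1, an antagonist of BMP and Wnt signals, had 215 to 396 CPM, against 2.45 to 4.81. Calml4, Wfdc2, Prelp, Spint2, transferrin (Trf), ceruloplasmin (Cp) and clusterin (Clu) were also higher. Cst3, which encodes cystatin C, was measured at 3023 to 4077 CPM, against 3530 to 3620 in other spots, and was not called.

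Transporters gave 11 higher and 1 lower of 15 (median 2.80). The monocarboxylate transporter Slc16a8 had 76.3 to 101 CPM, against 0.224 to 0.798, and the zinc importer Slc39a4 had 38.6 to 53.8, against 0.501 to 0.709. Slc13a4 for sulfate, Slc31a1 for copper, Slc2a12 for glucose, Slc29a4, Slc6a20a, Slc22a8 and the folate carriers Slc46a1 and Slc19a1 were among the others that were higher, and Slc35b4 was lower. In the retinoid and thyroid hormone list 4 of 10 were higher and 2 lower (median 1.09, or 3.47 over the 6 genes with UMIs in every library). Stra6 and Rdh5, which handle retinol, and Slco1c1, a thyroxine transporter, were among the 4, and the deiodinase Dio2 and the receptor Thra the 2. Of 6 genes of organic anion and drug efflux, Abcc1, Abcc4 and Slco1a4 were higher and Abcb1a was lower (median 0.80). Abcb1a encodes the efflux pump of brain capillaries and had 1.13 to 5.43 CPM in choroid plexus spots, against 13.4 to 16.8.

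Junction, receptor and regulator lists followed. Of 10 junction and keratin genes 7 were higher (median 3.34): Cldn1, Cldn2, Ocln, F11r, Cdh1, Krt8 and Krt18. The epithelial keratin Krt18 had 99.6 to 152 CPM, against 0.725 to 1.22, while the capillary claudin Cldn5 was lower, at 7.69 to 13.6 CPM against 33.6 to 41.0. Of 11 hormone and transmitter receptors 4 were higher (median 1.23): the prolactin receptor Prlr at 284 to 505 CPM, the serotonin receptor Htr2c at 172 to 293, the leptin receptor Lepr at 23.1 to 43.4 and the melanocortin receptor Mc3r at 3.18 to 12.5. In other spots these had 3.19 to 6.38, 38.7 to 45.4, 0.544 to 1.31 and 0.463 to 1.12 CPM. Of 14 transcription factors tested 7 were higher (median 1.61). Otx2 had 241 CPM in aged ethanol, 239 in aged vehicle, 179 in young ethanol and 228 in young vehicle, against 1.38 to 3.59 in other spots, and Msx1 had 120 to 212, against 1.55 to 2.99. Otx1, Rfx2, Foxj1, Trp73 and Gmnc, the last 4 being factors of multiciliated cells, completed the 7. None of 13 Hox genes, which mark the hindbrain plexus, had enough UMIs to be tested.

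Cilia and ependymal genes were high in the same spots. All 8 ependymal markers were higher (median 4.99) and 16 of 18 motile cilia genes (4.77), 5 of them on both lists. Foxj1, the master factor of motile cilia, had 100 CPM in aged ethanol, 90.7 in aged vehicle, 182 in young ethanol and 119 in young vehicle, against 5.06 to 7.29 in other spots. Rsph1, a radial spoke protein, had 171 to 251 CPM, against 3.88 to 7.47. The epithelium itself bears cilia, so these lists do not separate it from the ependymal wall. Their summed level gives a further view: the 8 ependymal markers were lower in core than in edge spots of each library, at 1013 and 1475 CPM in aged ethanol, 968 and 1455 in aged vehicle, 1605 and 1787 in young ethanol and 1052 and 1593 in young vehicle.

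**Figure D2:**
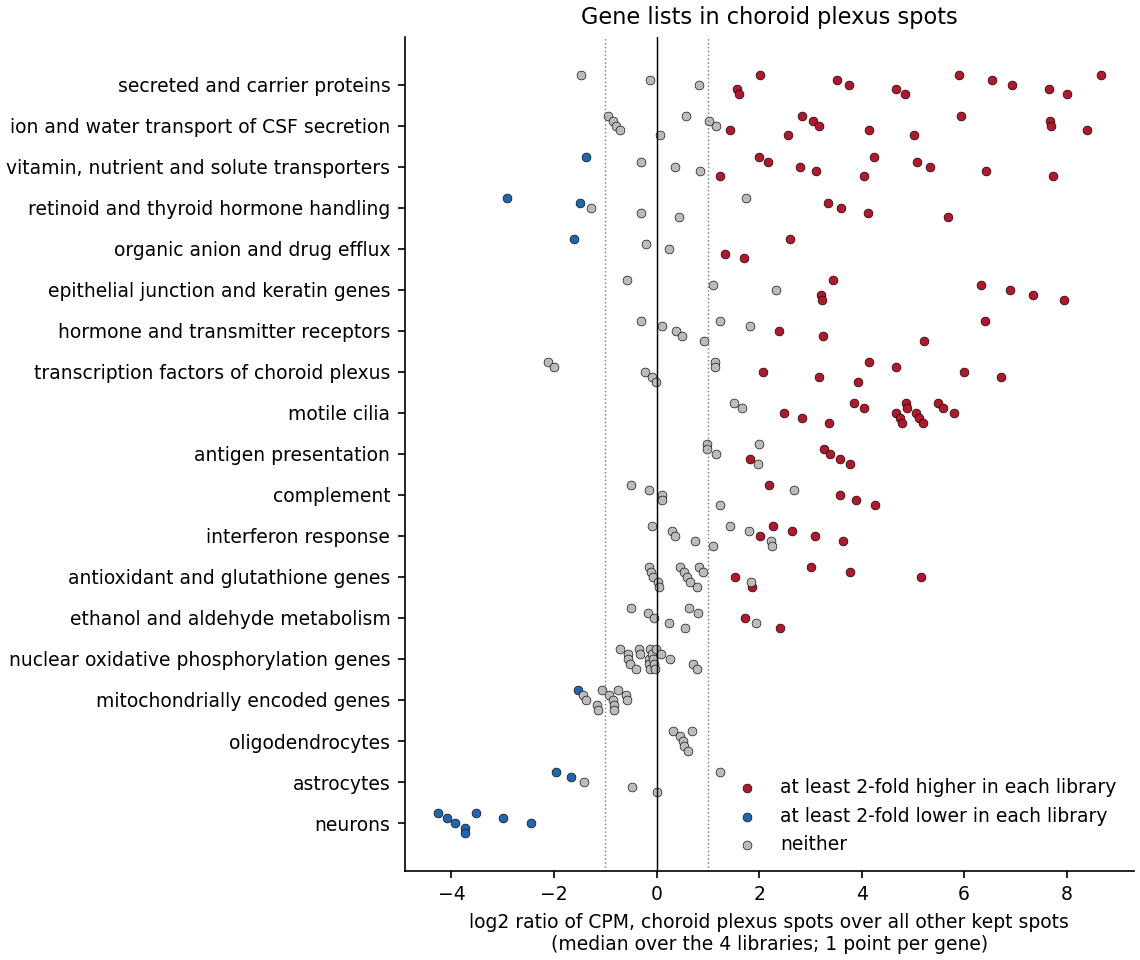
Median log2 ratio over the 4 libraries of CPM in choroid plexus spots over all other kept spots, 1 point per gene, for 19 gene lists; dotted lines mark 2-fold, red points were at least 2-fold higher in each library, blue ones lower, and grey ones neither. Secreted proteins, ion and water transport and motile cilia lie mostly to the right, and all 8 neuron markers lie to the left.

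Immune and stress lists were mixed, against 7.94% of all genes called higher. Antigen presentation had 5 of 10 higher (median 2.00), namely H2-K1, Cd74, H2-Aa, H2-Ab1 and H2-Eb1. Complement had 4 of 10 (1.72), interferon response 5 of 14 (1.91) and inflammation and leukocyte entry 4 higher and 1 lower of 10 (1.85). Cd55 and Cd59a, which shield cells from complement, and Vcam1, which leukocytes bind, were among them. Vcam1 had 151 to 210 CPM, against 13.3 to 19.2, and Bst2, an interferon-induced membrane protein, had 73.2 to 110, against 6.54 to 7.93. None of 9 macrophage and microglia markers met the call, and Cd163 had 0 UMIs in choroid plexus spots of every library. The unfolded protein response had 3 of 13 higher (Hspa5, Pdia4 and Manf; median 1.003), cytosolic heat shock 2 of 11 (Hspb1 and Bag3; -0.40), antioxidant genes 5 of 18 (Nfe2l2, Nqo1, Gpx8, Gsta4 and Sod3; 0.72) and metals and metallothioneins 1 of 13 (Trf; 0.39), the last a share near that of all genes. Senescence genes had 2 of 7 higher (Cdkn2b and Igfbp3; 1.37).

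Ethanol and aldehyde metabolism had 2 of 10 higher and none lower (median 0.59), where 7.94% of all genes were higher and 11.1% lower. Aldh2, the mitochondrial enzyme that clears acetaldehyde, had 404 CPM in aged ethanol, 406 in aged vehicle, 343 in young ethanol and 407 in young vehicle, against 72.8 to 79.2 in other spots. Catalase (Cat), which can oxidise ethanol in brain, had 128 to 152 CPM, against 38.8 to 47.2. The values of these genes were close to each other in the choroid plexus spots of the 4 libraries and at least 2-fold above every section's other spots.

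Energy and activity genes lay near or below the rest of the brain. None of 20 nuclear genes of oxidative phosphorylation was called (median -0.13), 1 of 13 mitochondrially encoded genes was lower (mt-Nd6; -0.93), and none of 3 signs of ribosomal RNA carry-over was called (-1.27). Of 12 immediate early genes 5 were lower (Junb, Egr1, Egr3, Arc and Ier2; -1.48), and of 15 clock genes 3 were lower (Cry2, Tef and Hlf; -0.62). Of 2 immunoglobulin genes tested, Ighm was lower, with 1, 1, 3 and 4 UMIs in choroid plexus spots of aged ethanol, aged vehicle, young ethanol and young vehicle (median log2 ratio -3.05), and Jchain had 0 UMIs in all of them. Among support cells, 4 of 8 fibroblast markers were higher (Dcn, Lum, Col1a2 and Igf2; 1.87, or 2.86 over the 5 with UMIs in every library), 1 of 8 endothelial markers was higher (Kdr) and 1 lower (Cldn5; -0.26), and none of 7 pericyte markers was called (0.39). Astrocytes had 2 of 6 lower (Slc1a2 and Aldoc; -0.94), oligodendrocytes 0 of 6 called (0.52) and erythrocytes 0 of 5 called (-1.95).

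Kcne2 and Clic6 are close neighbours: Kcne2 lies at chr16:92292389-92298133 and Clic6 at chr16:92498147-92541241, 200 kb apart with 5 annotated genes between them. Of these, Smim11 had a median log2 ratio of 1.14 (0.87 to 1.44 over the libraries) and Rcan1 of -0.67 (-0.94 to -0.61), and neither was called. Fam243 and Kcne1 had too few UMIs to be tested, and Smim34 was not matched. On the outer side of Kcne2, Mrps6 was higher in each library (1.98), Slc5a3 was not called (0.90), and Runx1, beyond Clic6, had 0 UMIs in choroid plexus spots of 3 libraries and 1 UMI in those of aged vehicle, and was not called. Kcne2 and Clic6 themselves chose the spots, so their own ratios are not set against those of their neighbours.

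How each gene followed the rule genes from spot to spot was described by Spearman's rho over the choroid plexus spots of 1 library between its CPM and the summed CPM of the rule genes, for 1731 genes with at least 2 UMIs per spot on average in each library. The points share library and depth, and no p-value is given. The median rho of all genes was -0.03. Enpp2 had the highest median over the 4 libraries, 0.89, with 0.78 in the lowest library. Psap, the precursor of the lysosomal saposins, had 0.88, the transporter Slc22a17 0.85, Ttr 0.85, the cation channel Trpm3 0.83, Prlr 0.82, Slc4a2 0.81, basigin (Bsg) 0.81, Kl 0.80 and Ecrg4 0.80. Among the 59 choroid plexus genes that could be followed, 55 had a median rho above 0, with a median of 0.64. Of all 1731 genes, 816 had a median rho above 0. The 59 were chosen as higher in spots that the rule genes picked, so a rho above 0 was partly built in.

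Psap and Slc22a17 had median log2 ratios over other spots of only 1.17 and 1.13, yet their rho was as high as that of Ttr. Lists differed in the same way. Transporters had a median rho of 0.68 over 8 genes, secreted proteins 0.63 over 13, the unfolded protein response 0.61 over 7 and ion and water genes 0.60 over 16. Ependymal markers had -0.18 over 8, and cilia genes -0.04 over 6, although both were strongly enriched over the rest of the brain. Nuclear genes of oxidative phosphorylation had 0.22 over 20. At the other end, Kif5a, a neuronal kinesin, had -0.88, Tmsb4x -0.85, Csrp1 -0.84 and Mbp -0.81, and oligodendrocyte markers as a list had -0.74 over 6 genes.

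Markers of other cell types differed between core and edge spots, not all in 1 direction. The 6 oligodendrocyte markers summed to 5300 CPM in core spots of aged ethanol, 1642 in aged vehicle, 6348 in young ethanol and 2688 in young vehicle. In edge spots they summed to 18545, 9117, 19088 and 21998 CPM in that order, and in all other spots to between 5842 and 6533. Myelin RNA was therefore higher in the core spots of both ethanol libraries than in those of both vehicle libraries. Neuron markers summed to 304 CPM in the choroid plexus spots of aged ethanol, 802 in aged vehicle, 390 in young ethanol and 455 in young vehicle, against 5625 to 6043 CPM in other spots. The 17 core spots of aged vehicle had 219 CPM and its 12 edge spots 2156, whereas in aged ethanol the core had 352 CPM and the edge 172. Fibroblast markers were higher in core than in edge spots in aged vehicle (946 and 358 CPM), young vehicle (1110 and 630 CPM) and young ethanol (712 and 528 CPM). In aged ethanol they were lower in core than in edge spots (979 and 1273 CPM).

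Blood RNA varied most of all. The 5 erythrocyte markers summed to 38.0 CPM in choroid plexus spots of aged ethanol, against 991 CPM in aged vehicle, and to 938 CPM in young ethanol, against 247 CPM in young vehicle, while in other spots they summed to between 1336 and 2456. The aged ethanol value was low in core (44.5) and edge spots (20.2) alike. Fibroblast markers summed to 1058, 769, 633 and 957 CPM in aged ethanol, aged vehicle, young ethanol and young vehicle, and astrocyte markers to 1006, 771, 1650 and 999. The part these neighbours play in the comparisons between libraries was not tested, and their values stand beside the genes concerned.

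**Figure D3:**
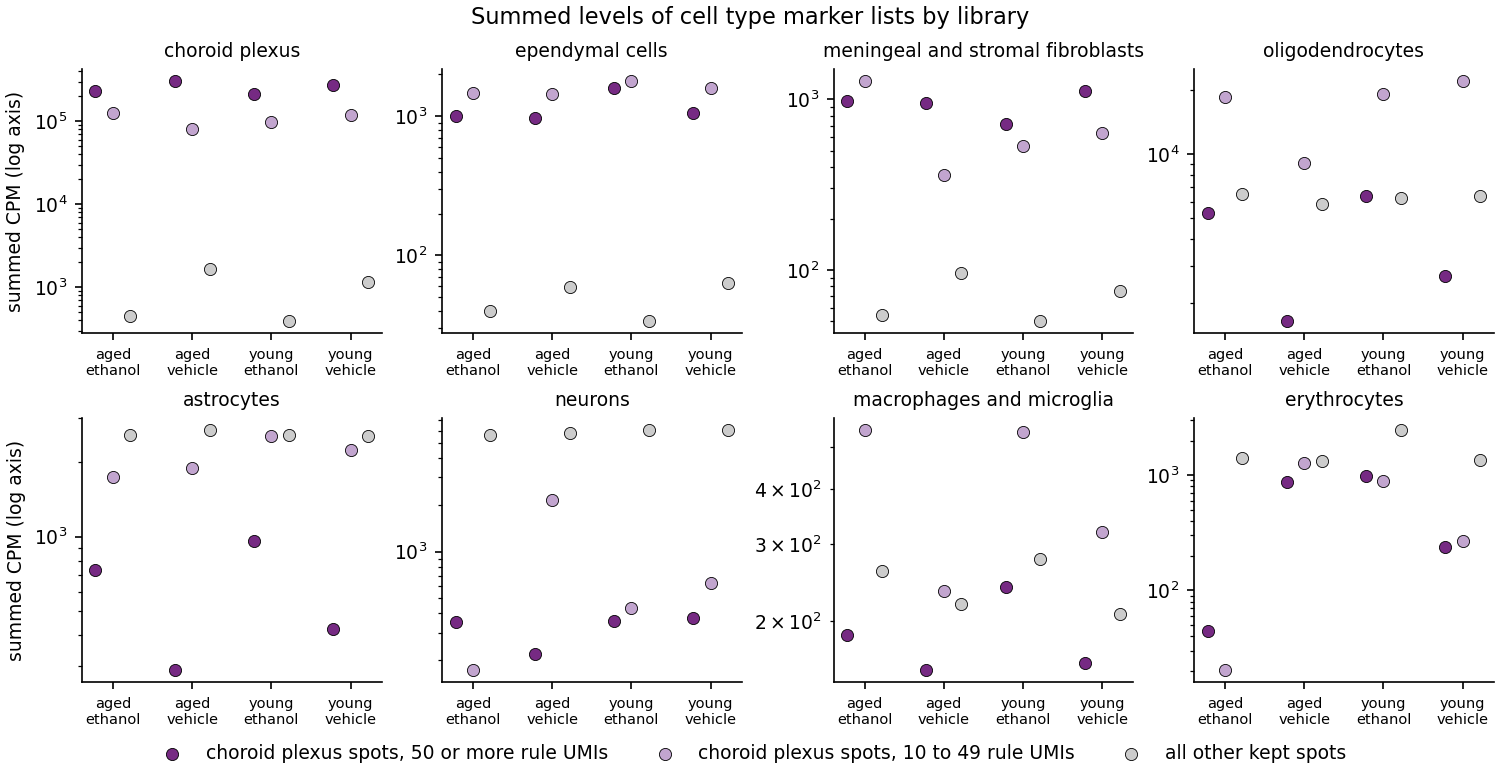
Summed CPM (log axes) of 8 cell type marker lists in each library, in choroid plexus spots with 50 or more rule UMIs (dark), in those with 10 to 49 (light) and in all other kept spots (grey). Oligodendrocyte markers are highest in the edge spots of every library, and erythrocyte markers in choroid plexus spots are lowest in aged ethanol.

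Between libraries, a gene of the choroid plexus spots was called when its CPM differed 2-fold or more, and the larger of the 2 counts was 50 UMIs or higher. Ethanol was compared with vehicle at each age and aged with young under each gavage. The comparisons of ethanol with vehicle at the 2 ages share no library, whereas each comparison of ages shares a library with each comparison of gavages.

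In aged mice, 41 of 2442 genes tested were higher with ethanol (1.68%) and 122 were lower (5%). Of the 122, 68 (55.7%) are genes that were lower in choroid plexus spots than in the rest of the brain, as were 245 of all 2442 tested (10%). With spots under 20 rule UMIs left out, 32 of 1757 genes tested were lower in place of 122 of 2442. That cut left 21 aged vehicle spots in place of 29, and 9 aged ethanol spots in place of 10. Among the 122 were the neuronal genes Snap25, Syt1, Slc17a7, Gad2 and Nrgn, beside summed neuron markers of 304 CPM in aged ethanol and 802 CPM in aged vehicle. Penk, which encodes the opioid precursor proenkephalin, had 11 UMIs in aged ethanol (29.8 CPM) and 302 in aged vehicle (342 CPM), of which 276 lay in the 5 spots nearest the minimum. In core spots alone, Snap25 was at 171 CPM in aged ethanol and 76.2 CPM in aged vehicle, so its direction turned. Furthest down were Hba-a2 (log2 ratio -6.20), Hbb-bs (-5.07), the synaptic vesicle gene Synpr (-4.70) and Hba-a1 (-4.55). There were 6 Hbb-bs UMIs over 10 spots of aged ethanol, against 482 over 29 spots of aged vehicle. Hbb-bs was found in 4 of the 10 aged ethanol spots and in all 29 aged vehicle spots.

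The higher side in aged mice held myelin and glial genes. Mbp, the myelin basic protein, had 4175 CPM in aged ethanol, against 1932 CPM in aged vehicle, alongside the higher myelin level of the ethanol core spots. Gpx3, the secreted glutathione peroxidase, had the largest ratio. It had 1, 5 and 28 UMIs in the lowest, median and highest of 10 aged ethanol spots, against 0, 0 and 15 in 29 aged vehicle spots, and 228 CPM against 46.5 (4.90-fold, 3.34 to 7.30). The vehicle median was 0, so any UMI put a spot above it. By CPM per spot, all 10 ethanol spots were above that median, and none was above the highest vehicle spot. S100a6 was 4.14-fold higher (3.07 to 5.63), with 43.1% of its aged ethanol UMIs in 1 spot. A2m, Apod, Mt2, Gstm1, H2-D1, Abhd2, Eno1b and Xbp1 were also higher, by 2.07 to 3.60-fold. Acss1, Ifi27l2a and Zfp185 were lower.

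In young mice, 22 of 2605 genes were higher with ethanol (0.845%) and 30 were lower (1.15%). Among the higher were C4b, the complement genes C1qa and C1qb, Gfap, S100b, the metallothionein Mt1 and 3 haemoglobin genes. The interneuron genes Sst, Npy and Pvalb were higher too, and 86.1% of the Sst UMIs in young ethanol lay in 1 of the 12 spots. Lower were Npr3, the clearance receptor for natriuretic peptides, at 12.8 CPM in young ethanol against 56.2 in young vehicle, Insig2, a regulator of sterol synthesis, at 15.4 against 65.7, and Tinagl1 at 20.5 against 83.7. Cish, a suppressor of cytokine signals, was at 33.3 CPM in young ethanol against 104 in young vehicle. The tight junction genes Cldn1 and Ocln were at 38.4 and 25.6 CPM in young ethanol, against 89.0 and 55.1 CPM in young vehicle, from only 15 and 10 UMIs.

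Choroid plexus genes as a set lay lower in young ethanol than in young vehicle. They had a median log2 ratio of -0.37 in young ethanol over young vehicle (75 tested), beside 7 edge spots of 12 in young ethanol and 12 of 26 in young vehicle. Whether this is less epithelium per spot or less of its RNA cannot be told apart. In aged ethanol over aged vehicle that median was 0.01 (69 tested). Scaled on this median, the young comparison gave 110 genes higher and 8 lower in place of 22 and 30, and Cldn1 (-0.84), Ocln (-0.73) and the beta-defensin gene Defb11 (-0.76) no longer passed 2-fold, while Npr3 (-1.76), Insig2 (-1.72) and Tinagl1 (-1.66) did.

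With that scaling, most choroid plexus genes differed little between ethanol and vehicle. Of 68 tested at both ages, 64 differed less than 2-fold at each age. These genes were chosen as at least 16-fold higher in each of the same libraries, and they include the rule genes. Scaling also centred them on their own median, so likeness between libraries was partly built in. In aged mice 2 of 69 were at least 2-fold higher with ethanol (2.9%), A2m and Cox8b, and 1 was lower (1.45%), Zfp185. In young mice 2 of 75 were higher (2.67%), Cox8b and the ciliary gene Tmem212, and none was lower (0%). Cox8b was the 1 gene past 2-fold in the same direction at both ages.

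**Figure D4:**
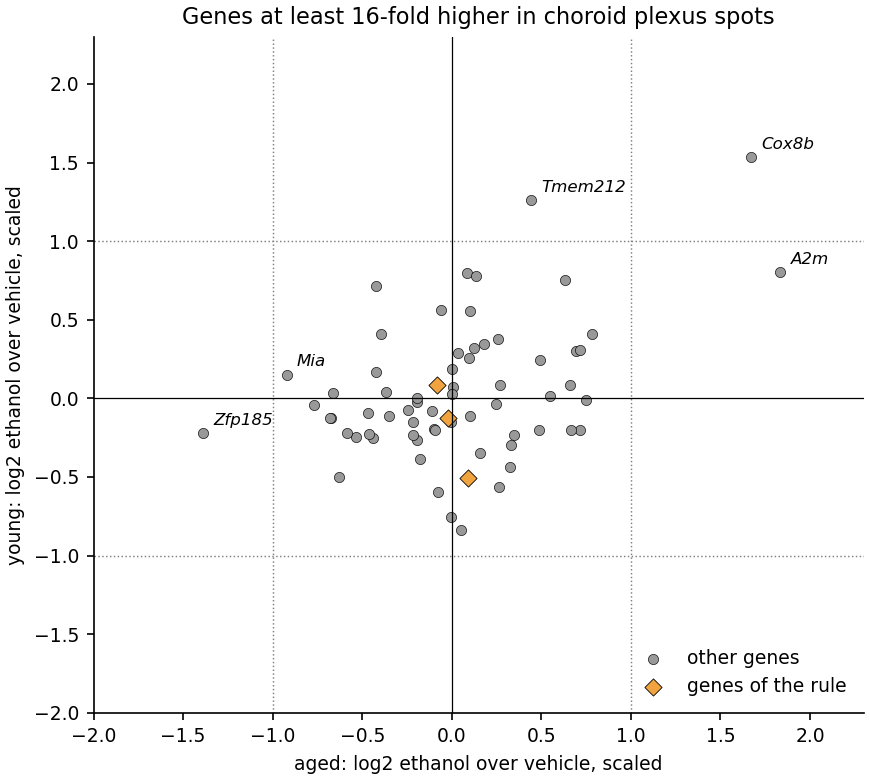
Log2 ratio of ethanol over vehicle in aged mice (horizontal) and young mice (vertical), each scaled on the median of the genes shown, for 68 genes at least 16-fold higher in choroid plexus spots and tested at both ages; dotted lines mark 2-fold and diamonds are the genes of the rule. Cox8b lies past 2-fold at both ages, at 1.67 in aged and 1.53 in young mice.

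Cox8b, at chr7:140898942-140900446, encodes the heart and muscle form of subunit 8 of cytochrome c oxidase, the last enzyme of the respiratory chain. It was itself a choroid plexus gene, with a median log2 ratio of 7.06 over other spots (6.23 to 7.89). It had 305 UMIs in choroid plexus spots of aged ethanol (827 CPM), against 227 in aged vehicle (257 CPM), and 220 in young ethanol (564 CPM), against 238 in young vehicle (252 CPM). The ratio of ethanol over vehicle was 3.21-fold in aged mice (2.70 to 3.83) and 2.23-fold in young mice (1.85 to 2.70). In all other spots the log2 ratios were 0.03 and -0.03.

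Spot by spot the groups overlapped at both ages. By CPM, 8 of 10 aged ethanol spots lay above the aged vehicle median and 5 above the highest aged vehicle spot, and 8 of 12 young ethanol spots lay above the young vehicle median and 2 above the highest young vehicle spot. Cox8b per 100 rule UMIs had a lowest, median and highest value of 4.35, 51.2 and 61.8 in aged ethanol, against 0, 11.2 and 29.0 in aged vehicle, and of 6.45, 44.2 and 107 in young ethanol, against 0, 12.8 and 33.3 in young vehicle. This second scale divides by the genes that chose the spots, and they differed too: in core spots Kcne2 had 493 CPM in aged ethanol, against 537 in aged vehicle, and 212 CPM in young ethanol, against 428 in young vehicle. The separation on that scale is therefore not read as a result. In core spots the folds were 3.22 in aged and 2.59 in young mice. With the 10 spots of highest summed CPM of the rule genes in each library they were 2.68 and 1.85, the second under 2-fold. None of the 20 nuclear genes of oxidative phosphorylation (19 tested in aged against young ethanol) was called in any of the 4 comparisons, and their median log2 ratio was -0.12 in aged and -0.13 in young ethanol over vehicle.

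**Figure D5:**
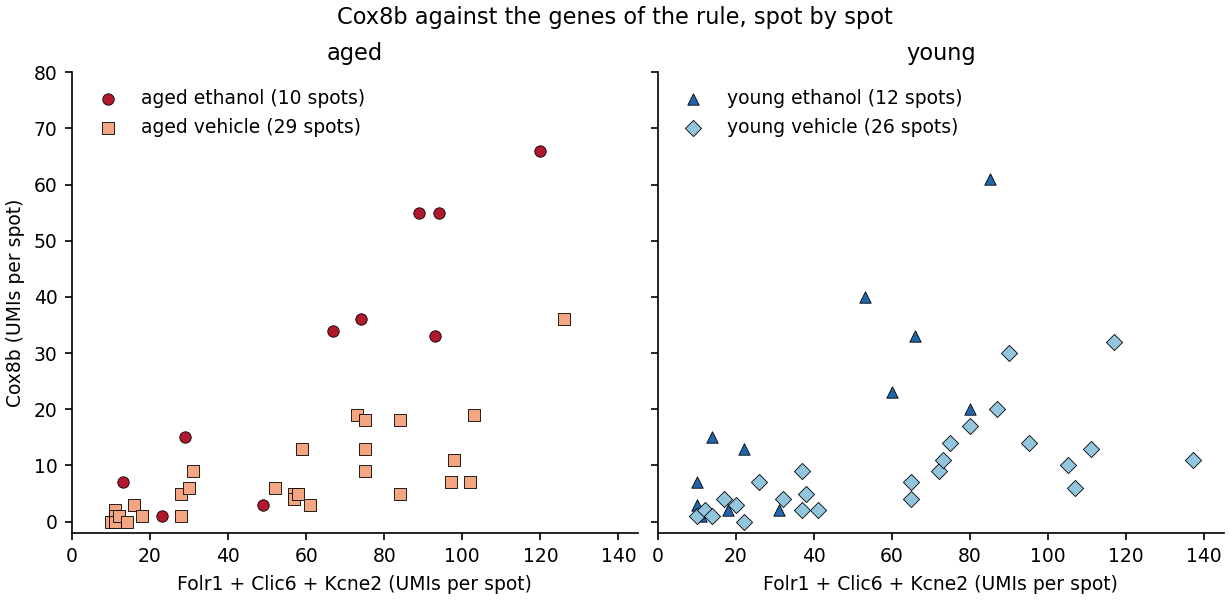
Cox8b UMIs per spot against the summed UMIs of Folr1, Clic6 and Kcne2 per spot in aged (left) and young (right) mice, 1 point per choroid plexus spot, with ethanol and vehicle by marker. Ethanol and vehicle spots overlap, with up to 66 Cox8b UMIs in aged ethanol and 36 in aged vehicle.

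A2m, at chr6:121636165-121679238, encodes the protease inhibitor alpha-2-macroglobulin. It had 551 CPM in aged ethanol, against 153 CPM in aged vehicle (3.60-fold, 2.88 to 4.51), and 284 CPM in young ethanol, against 211 CPM in young vehicle. By CPM, all 10 aged ethanol spots lay above the aged vehicle median and 6 above the highest aged vehicle spot, and 9 of 12 young ethanol spots lay above the young vehicle median and 2 above the highest young vehicle spot. In core spots the aged fold was 2.70 and the young fold 1.37. The log2 ratio in aged mice over all other spots was 0.51, in the same direction. Whether the ratio differs between the ages was not tested.

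Some calls were shared by both ages. Of the 22 genes higher with ethanol in young mice and the 41 in aged mice, 7 were the same, which is 31.8% of the young list and 17.1% of the aged list: C4b, S100b, Gfap, Cox8b, S100a6, Apod and Rhob. Over all genes tested, 0.845% were called higher in young and 1.68% in aged mice. On the lower side the 1 shared gene was Defb11, 3.33% of 30 and 0.820% of 122. Penk, Hbb-bs, Hba-a1 and Hba-a2 went in opposite directions. Of the 7, Cox8b alone is a choroid plexus gene. Gfap, the intermediate filament of astrocytes, had 222 CPM in aged ethanol and 64.6 in aged vehicle, and 374 in young ethanol and 161 in young vehicle. Myelin and astrocyte markers were higher in the ethanol core spots at both ages, and their part in these calls was not tested.

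C4b, a complement component of the classical pathway, had the largest ratio of them in young mice and, with S100a6, in aged mice. Its counts per spot were 2, 6.5 and 14 (lowest, median, highest) in aged ethanol, against 0, 0 and 11 in aged vehicle, and 3, 7.5 and 27 in young ethanol, against 0, 1 and 7 in young vehicle. Every ethanol spot held at least 2 C4b UMIs, and by CPM all were above the vehicle median of their age. In aged vehicle that median was 0, so any UMI put a spot above it. Of the ethanol spots, 0 of 10 aged and 6 of 12 young ones were above the highest vehicle spot. The folds were 4.14 in aged mice (2.72 to 6.38) and 8.33 in young mice (5.77 to 12.3). They were 6.44 and 15.7 in core spots, from 11 and 7 vehicle UMIs, and 31.5 and 27.2 with 10 spots from each library, from 2 and 4 vehicle UMIs, so their size is loosely set. C4b was also higher in all other spots, with log2 ratios of 1.67 and 2.29. The MHC class II gene H2-Aa and the complement gene C3 had under 50 UMIs in every library and were not tested: H2-Aa had 62.4 CPM in aged ethanol against 15.9 in aged vehicle and 71.8 in young ethanol against 11.7 in young vehicle, and C3 had 27.1 against 4.54 and 69.2 against 8.48.

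Age was compared within each gavage. In vehicle mice, 60 of 2847 genes were higher in aged than in young (2.11%) and 66 were lower (2.32%). Of the 60, 41 (68.3%) are genes that were lower in choroid plexus spots than elsewhere, such as Gad1 and Gad2, against 257 of all 2847 tested (9.03%). With spots under 20 rule UMIs left out, 9 of 2364 genes tested were higher in place of 60 of 2847. The 66 included the myelin genes Mbp, Mobp, Mog and Cnp. Of the 76 choroid plexus genes tested, none was at least 2-fold higher (0%) or lower (0%) in aged vehicle after scaling on their median, and 73 were within 1.5-fold. By that count this was the closest pair of libraries. For ethanol over vehicle, 63 of 75 were within 1.5-fold in young and 51 of 69 in aged mice. For aged over young ethanol it was 41 of 49. The vehicle libraries also had the most UMIs in choroid plexus spots, 881827 and 943318. The part of depth and of section level in this was not tested. Ttr was at 220743 CPM in aged vehicle and 208201 in young vehicle, Kl at 979 and 951, and Otx2 at 239 and 228.

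The haemoglobin gene Hba-a1 had the largest log2 ratio of aged over young vehicle, 2.79, followed by the interferon-induced gene Ifi27l2a, 2.50, and Myl9, a myosin light chain of smooth muscle, had the lowest, -3.05. Myl9 had 7 UMIs in aged vehicle, against 62 in young vehicle, and its ratio was -2.13 or lower under 9 alternatives. Ifi27l2a had 150 CPM in aged vehicle, against 26.5 CPM in young vehicle (5.65-fold, 3.66 to 9.04), and 48.8 CPM in aged ethanol, against 30.8 CPM in young ethanol. Over all other spots its log2 ratio of aged over young vehicle was 1.01. In aged vehicle, 2 spots held 48.5% of its UMIs, and with the 10 spots of highest content in each library the ratio was 1.74-fold. In core spots it was 4.45-fold, from 64 UMIs in aged vehicle against 15 in young vehicle. Its level across spots was thus uneven, with a median of 2 UMIs in aged vehicle and 0.5 in young vehicle.

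In ethanol mice, where both libraries were small, 11 of 1079 genes were higher in aged than in young (1.02%) and 25 were lower (2.32%). Gpx3 was at 228 CPM in aged ethanol, against 64.1 in young ethanol, and Igfbp7, Abhd2, Sowahc, Eno1b, Xbp1, Pcolce, Slc31a1 and the rule gene Kcne2 were also higher. The choroid plexus genes had a median log2 ratio of 0.41 here, beside 4 edge spots of 10 in aged ethanol and 7 of 12 in young ethanol. Scaled on it, 3 genes were higher and 105 lower in place of 11 and 25. None of 49 choroid plexus genes was then higher (0%), and 2 ciliary genes were lower (4.08%), Tmem212 (-1.19) and Dynlrb2 (-1.23). Ependymal markers summed to 1137 CPM in aged ethanol, against 1684 CPM in young ethanol. Genes called in the same direction with age under both gavages were Cmtm5, Dbndd2, Tspan2 and Mog, all lower and all genes of myelinating cells, 6.06% of 66 and 16% of 25. Penk, Hbb-bs, Hba-a1 and Hba-a2 were called under both in opposite directions.

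The functional lists of the epithelium held few calls between libraries. The lists of ion and water transport, secreted proteins and transcription factors had 0 called in all 4 comparisons. They had 16, 13 and 3 genes tested in each, but 14, 13 and 3 in aged against young ethanol. Gpx3 and A2m, called higher in aged ethanol over aged vehicle, are not on these lists. Transporters had 1 call, Slc31a1, in aged against young ethanol (4 tested, 8 in the others), and junction and keratin genes had Cldn1 and Ocln in young ethanol against young vehicle. Motile cilia genes had 0 calls in all 4 comparisons, with medians of 0.32 in aged and 0.38 in young ethanol over vehicle. Ethanol and aldehyde metabolism had 1 call, Acss1, lower in aged ethanol over aged vehicle. Among all genes tested, the shares called were 0.845% to 5% in 1 direction, so counts of 0 or 1 in lists this short are near the background.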

How the data were processed

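Spatial gene expression was measured on Visium slides in 4 libraries, 1 for each combination of age and gavage. The authors deposited 1 matrix of UMI counts per gene and spot for all libraries, whole numbers with no normalization, and spots were assigned to libraries by the letter after their barcode. Per the file headers, Space Ranger 1.3.1 made it, whereas the submitters' processing notes name Space Ranger 2.0.0 and the mm10 build. How reads of near-identical genes such as Hba-a1 and Hba-a2 were shared out is not given in the sources used here. Spot positions and images were not used.

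Spots with at least 500 UMIs were kept, and choroid plexus spots were those with at least 10 UMIs of Folr1, Clic6 and Kcne2. Spots are not replicates, so counts were summed per library and group of spots, divided by the summed total and given in CPM. A gene with 0 UMIs in a group was set to 3 UMIs, and its ratio is then a bound that counts toward a call in the direction it bounds only. Intervals between libraries are exact conditional binomial 95% intervals. No doublet caller was run, since a spot can hold several cells. No p-value was computed.

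The members, the 38 gene lists (425 genes, 424 found) and the rules were chosen with earlier results of these data known. Genes named against other spots are the rule genes, Ttr and Enpp2, the 15 highest and 10 lowest called genes by the library closest to 0, and members of the lists. Between libraries they are the 6 highest and 6 lowest called genes of a comparison, genes called alike at both ages or under both gavages, and called list members. The 10 genes with the highest rho and the neighbours of Kcne2 and Clic6 were also named. Genes outside this rule (Gpx3 per spot, the genes given for spots nearest the minimum, H2-Aa, C3 and the lowest genes by rho) were chosen after their values were seen.

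Alternatives changed the rule to 5 or 20 UMIs, the scaling, the weight of spots, the UMI minimum and the number of spots. Scaling on the choroid plexus genes and a rule of 50 UMIs were chosen after seeing the data. Promoters were RefSeq windows on GRCm38.p6. Scripts were tested on simulated data and ran in Python 3.11.15 with numpy 2.4.6, scipy 1.17.1, pandas 2.3.3 and matplotlib 3.10.9. Some genes that met the naming rule are not reported here.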

Additional observations from a re-analysis of the deposited data

Results flagged for a closer look

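In choroid plexus spots, 4 genes were called in opposite directions at the 2 ages and under the 2 gavages. The opioid precursor gene Penk had a log2 ratio of ethanol over vehicle of -3.52 in aged and 1.07 in young mice, and a ratio of aged over young of -2.63 under ethanol and 1.96 under vehicle. The haemoglobin gene Hbb-bs had -5.07 in aged and 1.71 in young mice for ethanol over vehicle, and -4.88 under ethanol and 1.90 under vehicle for aged over young. Hba-a1 had -4.55 and 2.72 for ethanol over vehicle in aged and young mice, and -4.48 and 2.79 for aged over young under ethanol and vehicle. Hba-a2 had -6.20 and 1.98, and -6.29 and 1.88, in the same order. The comparisons share libraries, so these 16 ratios describe 4 libraries in which aged ethanol was lowest for all 4 genes. None of these differences was tested.

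The Penk counts rested on few spots: 33.8% of the 302 UMIs in aged vehicle lay in 1 spot. In all other spots the log2 ratio of Penk was 0.03 for aged ethanol over aged vehicle and 0.58 for young ethanol over young vehicle, and that of Hbb-bs was 0.03 and 0.82.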

How the results depend on the processing

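No paired analysis was possible because each group holds 1 library. Most counts kept within 1.5 times of their value. The number of genes tested changed too, so the counts below are not shares. In the order main, rule at 5, at 20 and at 50, minimum of 20 UMIs and 10 spots, it was as follows. Aged ethanol over vehicle had 2442, 5328, 1757, 1457, 5823 and 976 tested. Young ethanol over vehicle had 2605, 3510, 2323, 1593, 6019 and 1122. Aged over young vehicle had 2847, 5443, 2364, 1686, 6566 and 1031. Aged over young ethanol had 1079, 1507, 867, 644, 3210 and 969. With the rule at 5 UMIs, aged vehicle had 64 spots, young vehicle 39, young ethanol 18 and aged ethanol 12. Against other spots, 518 of 15053 genes were then lower. Aged ethanol over vehicle then had 177 higher and 1103 lower, aged over young 662 and 142 under vehicle and 27 and 96 under ethanol. With the rule at 20, genes lower numbered 46 (young ethanol over vehicle), 32 (aged ethanol over vehicle) and 6 (aged over young, ethanol), and 9 were higher in aged over young vehicle. With a minimum of 20 UMIs, higher and lower numbered 153 and 540 in aged and 104 and 266 in young ethanol over vehicle, 252 and 224 in aged over young vehicle and 70 and 140 in aged over young ethanol. With 10 spots of highest content per library, 106 were higher and 16 lower in aged ethanol over vehicle, 108 higher in young ethanol over vehicle, 3 higher and 5 lower in aged over young vehicle, and 12 lower in aged over young ethanol. Scaled on the choroid plexus genes, young ethanol over vehicle had 110 and 8, and aged over young ethanol 3 and 105. With the rule at 50, 28 were lower in aged and 38 higher in young ethanol over vehicle, and aged over young had 7 higher and 13 lower under vehicle and 7 and 6 under ethanol. Leaving out 1 library gave 1278 to 1392 genes higher and 1766 to 1981 lower against other spots.

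Directions turned for genes of tissue around the epithelium; fewer spots enter in these alternatives, and the cause was not tested. At 20 UMIs, the log2 ratio of aged ethanol over vehicle was 0.99 for Snap25, 0.30 for Wfs1 and 0.37 for Syt1, and aged over young vehicle was -0.60 for Gng7, -1.43 for Penk, -0.19 for Gad1 and -0.22 for Wfs1. With 10 spots each, the aged ethanol ratio was 0.85 for Penk, 1.37 for Snap25, 0.0916 for Wfs1 and 1.09 for Syt1. Aged over young vehicle was then -0.27 for Synpr, -2.42 for Penk, 0.32 for Ermn, 0.90 for Litaf, 0.32 for Cmtm5, -0.35 for Wfs1, -0.13 for Hbb-bs, -0.47 for Hba-a2, 0.58 for Gfap and -0.40 for Gm42418. At 50 UMIs, the aged ethanol ratio was 0.43 for Penk, 1.16 for Snap25, 0.48 for Wfs1 and 0.57 for Syt1, and aged over young vehicle was -0.13 for Synpr, -1.63 for Penk and -0.41 for Wfs1. Cox8b kept its direction over 9 alternatives, with a log2 ratio of 1.42 to 2.47 in aged and 0.89 to 1.53 in young ethanol over vehicle, and A2m had 1.41 to 2.60 in aged mice. Of the named gene ratios under all alternatives, 1080 moved little, 28 turned and the others moved in size. Depth limits the ethanol libraries most, where 3 UMIs stand for 8.14 CPM in aged and 7.69 CPM in young mice.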
